A study of Mus musculus with 12 samples.

Results

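Ahr, the gene that was floxed in these mice, lies on mouse chromosome 12, and 10 genes of that chromosome are described here together: Ahr itself, Snx13, Hdac9, Agr3, Agr2, Tspan13, Bzw2, Ankmy2, Acp1 and Adi1. They are 10 of the 55450 genes in the deposited table and start between 28 and 37 Mb of the GRCm38 assembly. Acp1, Adi1 and Agr3 were selected on their difference between the genotypes, whereas Ahr was the targeted gene and the other 6 were chosen by their position within 1 Mb of it. The question put to these genes was whether the differences go with position on the chromosome or with AhR. RNA was sequenced from type II alveolar epithelial (AT2) cells, the surfactant-making cells of the alveolus, in 4 groups of 3 libraries. Cells came from AhRf/f mice, which carry the floxed gene on both copies without Cre, or from Sftpc-Cre;AhRf/f mice, in which Cre under the surfactant protein C (Sftpc) promoter removes part of it. Mice were on a C57BL/6 background and were 6 to 8 weeks old. Cells were enriched by negative selection, plated on collagen I and given PBS or cockroach extract (CRE) at 50 µg/ml for 24 h. The library titles call the cells without Cre WT, whereas the study's methods name AhRf/f mice as their source. By these methods both genotypes carry the same floxed allele. The origin of the flanking chromosome 12 in either line is not given in the sources used here. Effects of AhR loss, of Cre and of chromosome 12 sequence that differs between the lines therefore cannot be told apart by the comparison of genotypes.

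AhR is a transcription factor of the bHLH-PAS family that is held in the cytosol with chaperones until a ligand binds, after which it pairs with ARNT and binds DNA at a short core motif. Its best known targets encode enzymes that metabolize foreign compounds and feedback inhibitors of AhR itself. Genes near a targeted locus are inherited with it, so that a line made in one strain and crossed into another can keep flanking sequence of the first strain. Among the 10 genes, Snx13 encodes a sorting nexin of the endosome, Hdac9 a class IIa histone deacetylase, and Agr2 and Agr3 small protein disulfide isomerases of the endoplasmic reticulum found in mucus-making and ciliated airway cells. Tspan13 encodes a tetraspanin membrane protein, Bzw2 a regulator of translation and Ankmy2 an ankyrin repeat protein with a MYND zinc finger. Acp1 encodes the low molecular weight protein tyrosine phosphatase, and Adi1 encodes acireductone dioxygenase, an enzyme that recycles methionine.

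The bases before the start of Agr3, Acp1 and Cyp1b1 are shown because Agr3 and Acp1 were lower in Sftpc-Cre;AhRf/f cells, as was the AhR target Cyp1b1, and so that the presence or absence of the core AhR motif can be read. They are RefSeq sequences of GRCm38.p6, written 5′ to 3′ on the strand of the gene and limited to bases in no annotated exon. Capitals mark the core motif GCGTG, searched on both strands, so that it reads CACGC where it lies on the opposite one.
Agr3, chr12:35925371-35925619, plus strand: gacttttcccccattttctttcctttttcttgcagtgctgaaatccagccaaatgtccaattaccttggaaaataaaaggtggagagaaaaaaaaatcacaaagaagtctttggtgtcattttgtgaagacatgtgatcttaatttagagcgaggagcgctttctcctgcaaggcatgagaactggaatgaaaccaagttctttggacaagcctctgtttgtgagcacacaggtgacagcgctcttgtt
Acp1, chr12:30911613-30911667, minus strand: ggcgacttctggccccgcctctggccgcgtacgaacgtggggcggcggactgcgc
Cyp1b1, chr17:79715062-79715311, minus strand: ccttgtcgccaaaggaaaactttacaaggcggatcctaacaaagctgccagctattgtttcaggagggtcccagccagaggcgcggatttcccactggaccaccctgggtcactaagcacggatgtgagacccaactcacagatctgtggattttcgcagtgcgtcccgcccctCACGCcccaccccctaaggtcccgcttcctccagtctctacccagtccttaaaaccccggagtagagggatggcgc
The core motif occurs once in the Cyp1b1 stretch, 76 bases before the start, and in neither of the other sequences. The Acp1 stretch is only 55 bases long because Sh3yl1 begins close by on the opposite strand, 78 bases from the start of Acp1 in the GENCODE annotation. In the full windows from 250 bases before to 50 after the start, which exist for 8 of the 10 genes (Ahr and Adi1 had no entry), the motif was found in none. It was found in 32.4% of all 32851 windows of this length. Of the 10 listed AhR targets 8 had a window, and the motif occurred in those of Cyp1a1, Cyp1b1, Ahrr, Tiparp and Scin. It also occurred once in the window of Fam110c, a gene near Acp1 described below, 36 bases before its start. These matches describe the letters in a short window and say nothing about whether AhR binds there or elsewhere.

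Libraries held 68878065 to 80935797 counts, and 20612 genes passed the filter on low counts. The 9 AT2 markers were detected in every library, from Sftpc at 3086 to 6492 CPM (counts scaled to the library total) down to Slc34a2 at 9.16 to 21.4 CPM. Their sum was 6633 to 8517 CPM in AhRf/f and 4414 to 9041 CPM in Sftpc-Cre;AhRf/f libraries. Markers of other cells were also present. Of the 8 club and goblet cell markers Scgb1a1 had a median of 4876 CPM, the other 7 had medians from 0.112 to 21.3 CPM, and Muc5b, Muc5ac and Bpifb1 were at 0 in 3, 2 and 1 libraries. The 7 AT1 cell markers together ranged from 1044 to 2211 CPM. The 9 leukocyte markers together ranged from 37.4 to 311.5 CPM and the 8 ciliated cell markers from 94.1 to 247.5 CPM. Their part in the results below was not tested except where values are given. The labels do not say whether libraries of a group came from separate mice, so p-values measure the spread between libraries, which may be technical.

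Per length of transcript, Adi1 and Acp1 were the most abundant of the 10 genes in AhRf/f cells and Hdac9 and Agr2 the least. With PBS, the deposited FPKM averaged 30.1 ± 2.83 for Adi1, 23.2 ± 2.14 for Acp1, 9.90 ± 0.783 for Snx13, 7.27 ± 1.98 for Tspan13 and 6.36 ± 0.115 for Ahr (SD, n = 3). Below these, Bzw2 was at 5.62 ± 0.677, Ankmy2 at 2.76 ± 0.148, Agr3 at 0.904 ± 0.219 and Hdac9 at 0.0323 ± 0.0103 FPKM. Snx13 overlapped Tspan13, Tspan13 overlapped Ahr and Hdac9 overlapped Agr2 over the 3 libraries, and the other neighbours in this order did not overlap. In PBS-treated Sftpc-Cre;AhRf/f cells Acp1 stood below Snx13, at 9.11 ± 0.597 against 11.4 ± 0.398 FPKM. Adi1 was first in all 4 groups.

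Ahr, the targeted gene (ENSMUSG00000019256, chromosome 12, 35497974 to 35535038, minus strand), was not called between genotypes, and its libraries overlapped. With PBS it had 42.9, 43.8 and 45.1 CPM in AhRf/f cells, against 49.6, 40.2 and 45.7 CPM in Sftpc-Cre;AhRf/f cells. With CRE it had 56.2, 50.5 and 50.1 CPM in AhRf/f cells, against 51.5, 37.7 and 49.5 CPM in Sftpc-Cre;AhRf/f cells. The overlap was present under both treatments. The log2 fold change of Sftpc-Cre;AhRf/f over AhRf/f cells was 0.039 with PBS (95% interval -0.22 to 0.30) and -0.18 with CRE (-0.44 to 0.083). The Benjamini-Hochberg adjusted p from edgeR's quasi-likelihood fit was 0.99 and 0.964. These counts cover the whole gene, so that the loss of an exon by Cre cannot be read from them, and they do not check the labels. The antisense transcript Gm48236, which overlaps Ahr by 618 bases, had 14 counts in all 12 libraries.

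**Figure D1:**
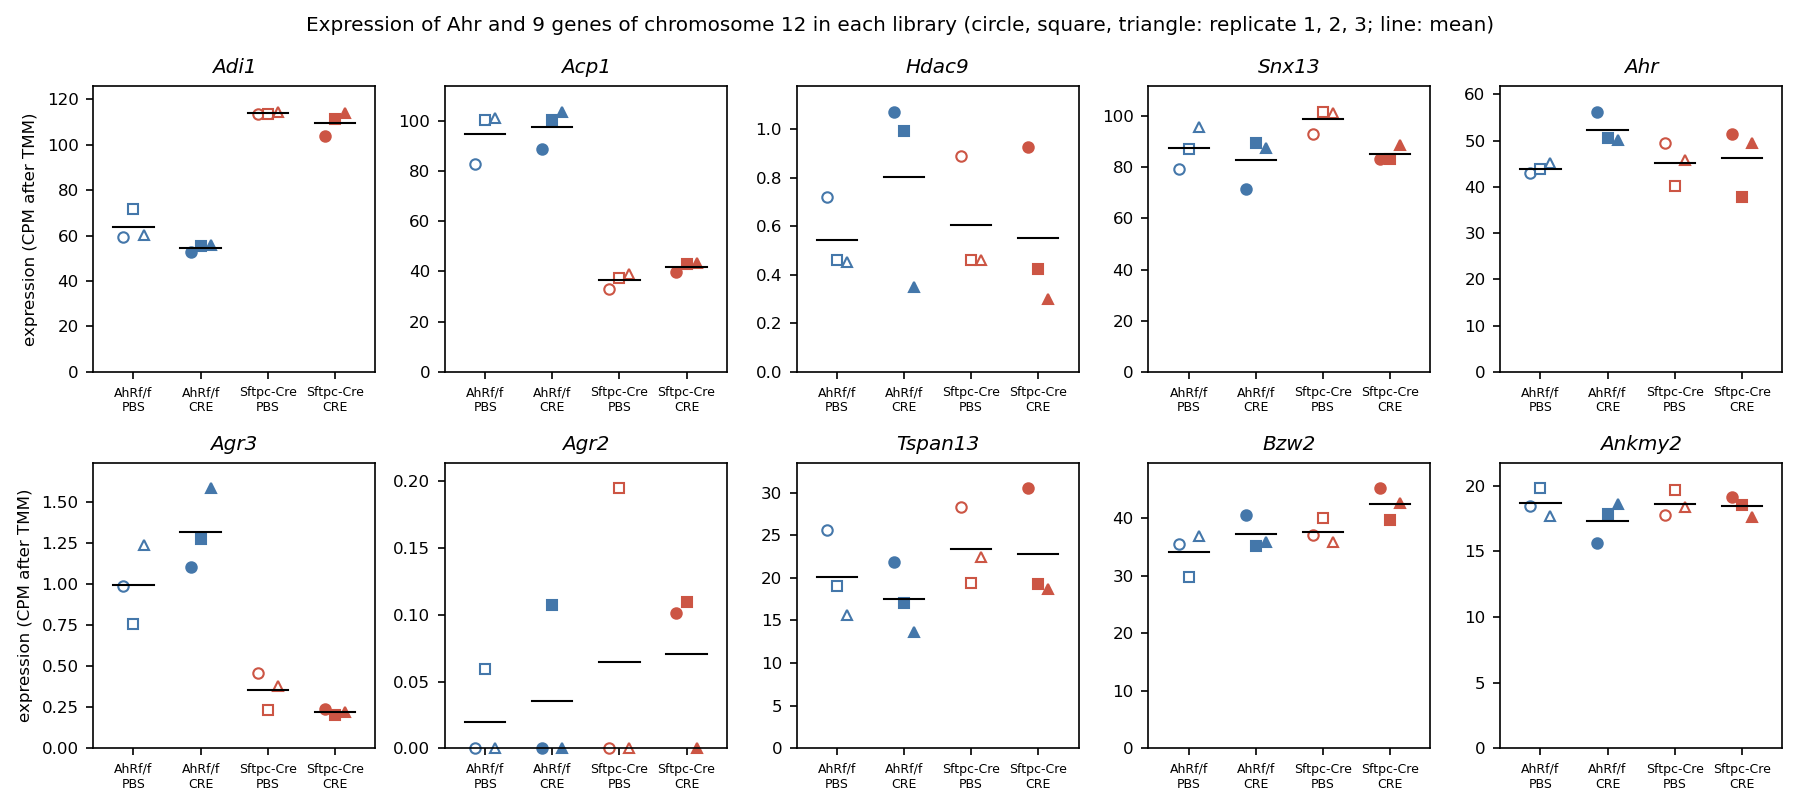
Expression of the 10 genes in each library, in CPM after TMM normalization on axes that start at 0, with panels in the order of the chromosome. Blue points are AhRf/f and red points Sftpc-Cre;AhRf/f cells, open with PBS and filled with CRE, and lines are group means of 3 libraries. Adi1, Acp1 and Agr3, which were selected on the genotype difference, are the 3 panels in which red and blue points do not overlap under either treatment. Of all tested genes, 14% with PBS and 11% with CRE had libraries that did not overlap.

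None of the 6 tested genes chosen as targeted or near it, Ahr, Snx13, Hdac9, Tspan13, Bzw2 and Ankmy2, was called between genotypes. Over all genes, edgeR called 31 of 20612 (0.15%) with PBS and 35 (0.17%) with CRE, of which 10 and 12 were higher. At an unadjusted p below 0.05 the count among these 6 was 0 under both treatments, and DESeq2 and limma-trend also called 0. The genotype libraries overlapped in all 6 under both treatments, where 14% of all genes with PBS and 11% with CRE had libraries that did not overlap. Their log2 fold changes lay between -0.0043 and 0.22 with PBS (median 0.15) and between -0.54 and 0.38 with CRE (median 0.063), against medians of -0.0010 and -0.0034 over all genes tested.

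Snx13, at -0.488 Mb from the Ahr start, had 79.3, 87.3 and 95.6 CPM in AhRf/f cells, against 93.2, 101.6 and 101.3 CPM in Sftpc-Cre;AhRf/f cells with PBS. The ranges overlapped, and the 95% interval of the log2 fold change ran from -0.036 to 0.39. With CRE the interval ran from -0.17 to 0.25. Tspan13, at 0.5075 Mb from the Ahr start on the other side, varied widely between libraries. Its CPM with PBS was 25.6, 19.1 and 15.6 in AhRf/f cells, against 28.4, 19.4 and 22.4 in Sftpc-Cre;AhRf/f cells, and replicate 1 was highest in every one of the 4 groups. The summed leukocyte markers were also highest in replicate 1 of each group. They stood there at 311.5 and 273.3 CPM in AhRf/f and 225.4 and 205.9 CPM in Sftpc-Cre;AhRf/f cells, with PBS and CRE. The 4 endothelial markers together were highest there too, and the part of either was not tested. The interval of the Tspan13 log2 fold change was wide, from -0.35 to 0.79 with PBS and from -0.19 to 0.95 with CRE.

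Bzw2 averaged 34.1 ± 3.78 CPM in AhRf/f and 37.7 ± 2.15 CPM in Sftpc-Cre;AhRf/f cells with PBS, and 37.2 ± 2.87 and 42.5 ± 2.71 CPM with CRE (SD, n = 3). Log2 fold changes of 0.14 and 0.19 had intervals that included 0. Ankmy2, whose first 967 bases overlap Bzw2 on the opposite strand, was at 18.7 ± 1.05 against 18.6 ± 0.963 CPM with PBS. Its log2 fold change with PBS was -0.0043, with an interval from -0.22 to 0.21. How reads in the overlap were divided between the genes is not given in the sources used here.

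Hdac9 was low, with 23 to 86 counts or 0.302 to 1.07 CPM. Replicate 1 was highest in all 4 groups, as for Tspan13, and replicate 3 was lowest in all 4. With a standard error of 0.54 its log2 fold changes of 0.15 with PBS and -0.54 with CRE could not be told from 0. Agr2 did not pass the filter. It had 4 counts in AhRf/f cells with PBS, 8 with CRE, and 16 in each of the Sftpc-Cre;AhRf/f groups. All counts came from replicate 2 of each group and from replicate 1 of CRE-treated Sftpc-Cre;AhRf/f cells, and the other 7 libraries were at 0, which allows up to 3 counts or 0.0365 to 0.0446 CPM. No fold change is given for Agr2. This limit covers counting error only.

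Acp1, Adi1 and Agr3 are the genes that were selected on the genotype difference, so their differences are given as a description without a test. Acp1 (ENSMUSG00000044573, 30893326 to 30911589, minus strand) lies at -4.62 Mb from the Ahr start, where negative distances are towards the start of the chromosome. With PBS it had 82.6, 100.3 and 101 CPM in AhRf/f cells, against 33.0, 37.3 and 38.8 CPM in Sftpc-Cre;AhRf/f cells. With CRE it had 88.8, 100.1 and 103.4 CPM and 39.7, 42.8 and 43.2 CPM. Every library of Sftpc-Cre;AhRf/f cells was below every library of AhRf/f cells under each treatment. The gene was 2.60-fold lower with PBS (log2 fold change -1.38, SE 0.099) and 2.33-fold lower with CRE (-1.22, SE 0.099). In bulk RNA, fewer cells of a type and less RNA per cell cannot be told apart.

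Adi1 (ENSMUSG00000020629, 28675231 to 28682175, plus strand) lies at -6.86 Mb from the Ahr start and is the farthest of the 10 genes. Its difference had the opposite sign. With PBS it had 59.2, 71.7 and 60.4 CPM in AhRf/f cells, against 113.6, 113.7 and 114.4 CPM in Sftpc-Cre;AhRf/f cells. With CRE it had 52.7, 55.3 and 55.8 CPM and 103.8, 111.4 and 113.8 CPM. The highest AhRf/f library stood below the lowest Sftpc-Cre;AhRf/f library under each treatment. The gene was 1.79-fold higher with PBS (log2 fold change 0.84, SE 0.076) and 2.01-fold higher with CRE (1.01, SE 0.076). The microRNA gene Mir6937 lies inside Adi1 on the same strand and had 14 counts in all libraries together.

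Agr3 (ENSMUSG00000036231, 35925620 to 35949736, plus strand) lies 0.391 Mb from the Ahr start and is thus the only one of the 3 that is close to it. It was low in all libraries, with 15 to 118 counts. With PBS it had 0.987, 0.758 and 1.24 CPM in AhRf/f cells, against 0.457, 0.231 and 0.380 CPM in Sftpc-Cre;AhRf/f cells. With CRE it had 1.11, 1.27 and 1.58 CPM and 0.241, 0.205 and 0.223 CPM. The genotypes did not overlap under either treatment, and the gap was wider with CRE. The gene was 2.79-fold lower with PBS (log2 fold change -1.48, SE 0.33) and 5.89-fold lower with CRE (-2.56, SE 0.35).

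Agr3 is known from ciliated airway cells, so the markers of these cells are given beside it. The summed CPM of 8 ciliated cell markers was 103.5 to 141.6 in AhRf/f cells and 136.6 to 247.5 in Sftpc-Cre;AhRf/f cells with PBS. With CRE it was 94.1 to 135 and 141.4 to 234.3 CPM, without overlap. None of these markers was at 0 in any library. Whether the share of ciliated or other airway cells bears on the Agr3 values was not tested. The 5 other tested members of a list of protein disulfide isomerases, Txndc12, Pdia3, Pdia4, Pdia6 and P4hb, were not called in either genotype comparison. Their median log2 fold change was -0.076 with PBS and 0.027 with CRE, against -0.0010 and -0.0034 over all genes tested.

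The whole stretch from 28 to 37 Mb held 49 tested genes, and without Acp1, Adi1 and Agr3 edgeR called 1 of 46 with PBS (2.17%) and 0 of 46 with CRE, against 0.15% and 0.17% of all genes. For the same 46 genes limma-trend called 1 and 0, and DESeq2 called 5 and 4, against 1.18% and 0.844% of all genes by DESeq2. With the 3 genes included, which had been chosen on this contrast, the counts were 3 with PBS and 3 with CRE. The stretch was drawn with these results known. The tested genes nearest outside it, Sox11 at 27.33 Mb and Meox2 at 37.11 Mb, had log2 fold changes of 0.11 and 0.038 with PBS, and the outermost inside, Colec11 at 28.59 Mb and Ispd at 36.38 Mb, had -1.87 and 0.019. With CRE the values were 0.55 for Sox11, -0.14 for Meox2, -0.58 for Colec11 and 0.041 for Ispd, and Colec11 was called by edgeR under neither treatment. Outside the stretch, edgeR called 0 of 783 tested genes of chromosome 12 under either treatment.

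The gene called with PBS was Fam110c (chromosome 12, 31073861, plus strand), which lies at -4.46 Mb from the Ahr start and close to Acp1. It had 32.1, 28.9 and 32.1 CPM in AhRf/f cells, against 15.0, 20.5 and 17.6 CPM in Sftpc-Cre;AhRf/f cells, without overlap. The log2 difference was -0.81 (SE 0.12) at a Benjamini-Hochberg adjusted p of 0.0311 from edgeR. With CRE it was -0.59 (SE 0.12), at 0.153. The call with PBS was lost when only the compared groups were fitted and in 10 of the 12 fits that each left out 1 library. It held without replicate 2 of the PBS-treated or replicate 1 of the CRE-treated Sftpc-Cre;AhRf/f cells. The call with PBS also held in limma-trend, with another scaling, without a filter, with a filter of 1 CPM in 3 libraries and with a replicate block. DESeq2 called Fam110c under both treatments.

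The tested genes directly beside Acp1 and Adi1 were not called by edgeR in the fit of all libraries. Tmem18, the next tested gene below Acp1, had 32.6, 32.5 and 37.1 CPM in AhRf/f cells, against 22.3, 25.4 and 23.2 CPM in Sftpc-Cre;AhRf/f cells with PBS. With CRE it averaged 28.5 ± 2.11 and 22.2 ± 0.482 CPM (SD, n = 3), and the genotypes overlapped under neither treatment. Its log2 fold changes of -0.53 (SE 0.090) and -0.36 (SE 0.090) had the sign of those of Acp1, at Benjamini-Hochberg adjusted p values of 0.066 and 0.348 in edgeR. DESeq2 called Tmem18 under both treatments, and edgeR called it with PBS under a filter of 1 CPM in 3 libraries or a replicate block. Sh3yl1, which starts 78 bases from Acp1 on the opposite strand, averaged 22.3 ± 2.72 CPM in AhRf/f and 18.5 ± 0.601 CPM in Sftpc-Cre;AhRf/f cells with PBS (SD, n = 3). The genotypes did not overlap with PBS, by a small margin (lowest AhRf/f library 19.25, highest Sftpc-Cre;AhRf/f library 19.2 CPM), and overlapped with CRE. The log2 fold change of Sh3yl1 was -0.26 with PBS and -0.10 with CRE, and edgeR gave Benjamini-Hochberg adjusted p values of 0.604 and 1. On both sides of Adi1, Rnaseh1 had log2 fold changes of -0.11 and -0.062 and Trappc12 of -0.14 and -0.044, opposite in sign to Adi1. None of the 4 values passed the test. These neighbours were chosen for their position beside the selected genes.

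Under the rule of the study's methods, which asks limma-trend for an unadjusted p below 0.05 and a log2 change of more than 0.5 either way, 6 of the 46 genes passed with PBS and 4 with CRE. That is 13% and 8.7%, where 4.1% of all tested genes passed with PBS and 3.42% with CRE. Slc26a4, Pxdn and Fam110c passed under both treatments, Colec11, Tmem18 and Prps1l1 with PBS only and Sypl with CRE only. Slc26a4 was higher in Sftpc-Cre;AhRf/f cells (edgeR log2 fold change 0.92 with PBS and 1.65 with CRE), as was Sypl with CRE (0.74). The others that passed were lower. Libraries of the genotypes did not overlap in 11 of the 46 with PBS (23.9%) and in 7 with CRE (15.2%), against 14% and 11% of all tested genes. No test of these shares was made. The 14 other genes between 7 and 4 Mb below the Ahr start, named because Acp1 and Adi1 lie there, held 4 of the 6 with PBS and 2 of the 4 with CRE. Of these 14, 10 were lower under each treatment. On both sides of them more genes were higher. Between 4 and 1 Mb below the Ahr start 13 of 20 were higher with PBS and 11 of 20 with CRE. Between 10 and 7 Mb below it all 4 were higher under each treatment. Of the 587 genes more than 20 Mb above the Ahr start, 268 were lower with PBS and 293 with CRE. Libraries with CRE and PBS deviated together, so the treatments are not separate repeats. The median absolute log2 fold change of these 14 was 0.22 with PBS and 0.18 with CRE. It was 0.15 and 0.29 in the 12 genes within 1 Mb of the Ahr start, and 0.23 and 0.195 in the 587 genes more than 20 Mb above it.

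**Figure D2:**
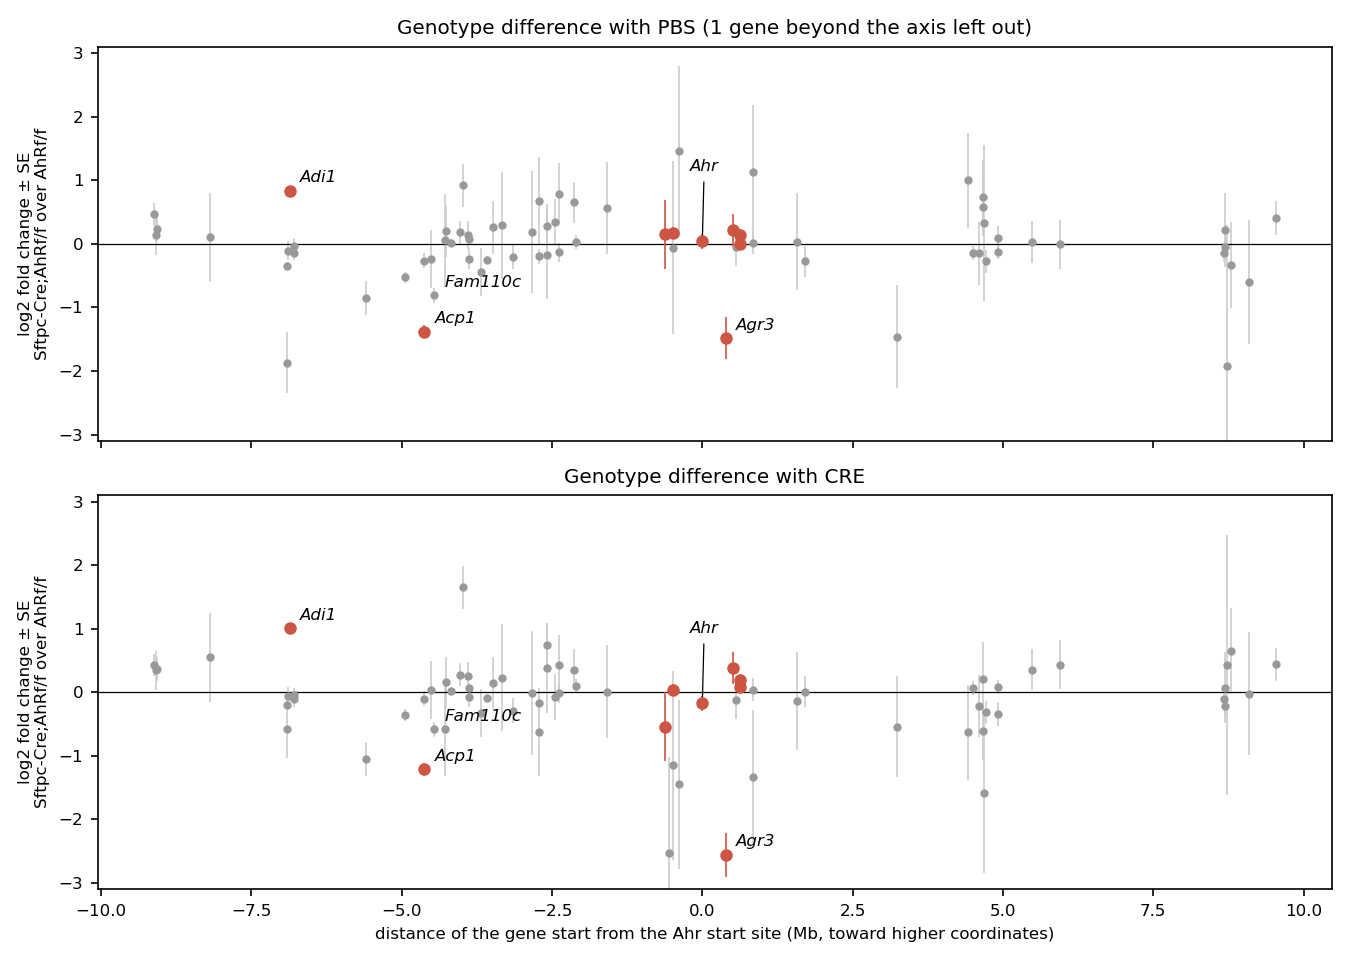
Log2 fold change ± SE of Sftpc-Cre;AhRf/f over AhRf/f cells for every tested gene of chromosome 12 within 10 Mb of the Ahr start site, with PBS above and with CRE below, against the distance in Mb. Red points are the tested genes among the 10 described and grey points all others, without Prps1l1 with PBS (-5.91), which lies beyond the axis. Adi1 lies at 0.84 and 1.01 and Acp1 at -1.38 and -1.22, while Ahr lies at 0.039 and -0.18.

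Of the AhR target list, all 9 tested genes of 10 had negative values under both treatments, with a median log2 fold change of -1.33 with PBS and -1.38 with CRE, and edgeR called 3 of them under each, Cyp1b1, Nqo1 and Tiparp, against 0.15% and 0.17% of all genes. Cyp1b1, which encodes a cytochrome P450, was at 384 ± 34.6 against 44.7 ± 13.7 CPM with PBS and at 424.7 ± 65.3 against 47.1 ± 15.3 CPM with CRE (SD, n = 3). On the log2 scale it changed by -3.103 (SE 0.27) and -3.17 (SE 0.27), and Nqo1, a quinone reductase, by -1.33 (SE 0.13) and -1.40 (SE 0.13). Tiparp, a feedback inhibitor of AhR, changed by -0.98 and -1.17. For these 3 genes edgeR gave Benjamini-Hochberg adjusted p values between 0.000714 and 0.0414. Ahrr, the AhR repressor, was not called, with -1.49 (SE 0.45) and -2.39 (SE 0.46). The list was written with earlier results of these data known and is not independent evidence. Scin, a listed target that lies on chromosome 12 itself outside the stretch, had -0.15 and -0.22 and was not called.

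Arnt, the partner of AhR on DNA, was at 33.6 ± 2.61 against 35.4 ± 1.36 CPM with PBS (SD, n = 3). With CRE it was at 34.9 ± 4.8 against 30.9 ± 3.37 CPM. Its log2 fold changes of 0.074 (SE 0.115) and -0.18 (SE 0.115) were not called by edgeR.

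**Figure D3:**
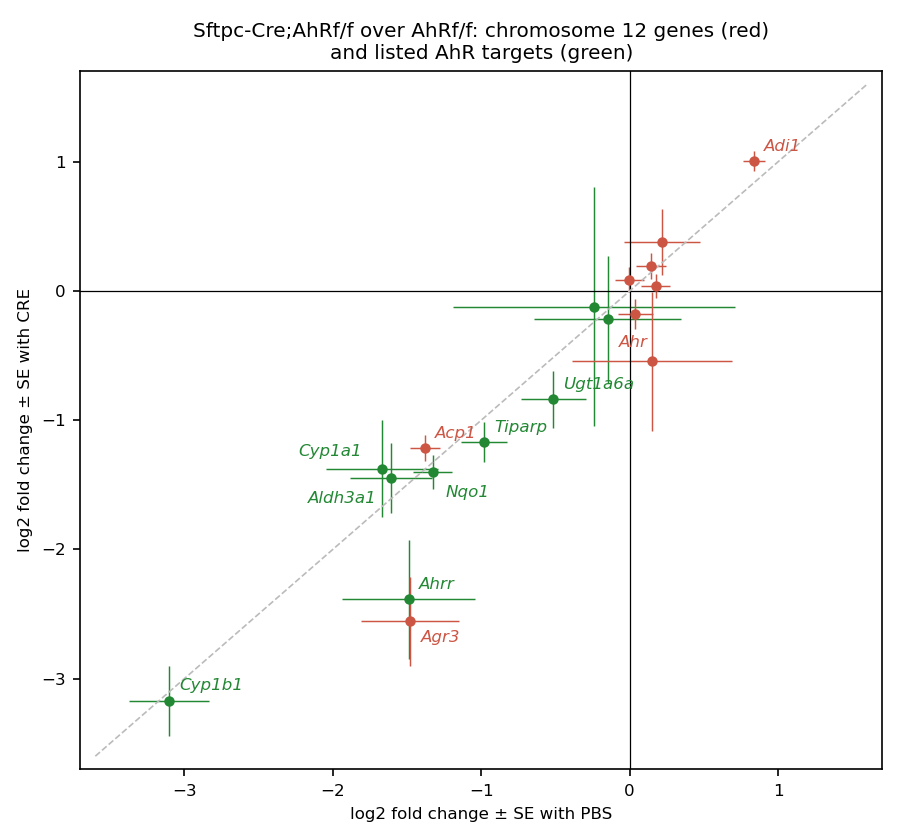
Log2 fold change ± SE of Sftpc-Cre;AhRf/f over AhRf/f cells with PBS on the horizontal and with CRE on the vertical axis, for the 9 tested genes of chromosome 12 in red and the 9 tested AhR targets in green; the dashed line marks equal values. Agr3 lies at -1.48 and -2.56, Acp1 at -1.38 and -1.22, and Adi1 at the upper right. These genes were selected on such differences and the target list was written with results known, so their closeness to targets is a description. The unlabelled points are Snx13, Hdac9, Tspan13, Bzw2, Ankmy2 and the targets Scin and Ugt1a6b.

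The response to CRE was used neither by the position nor by the selection of the genes. No gene of the 9 passed the test in either genotype. In AhRf/f cells edgeR called 0 of the 9 tested genes and 48 of 20612 over all genes (0.233%), and in Sftpc-Cre;AhRf/f cells 0 of 9 and 54 over all genes (0.262%). DESeq2 and limma-trend also called 0 of 9 in both. At an unadjusted p below 0.05, 1 of 9 passed in AhRf/f cells, where 9.36% of all genes did, and 1 of 9 in Sftpc-Cre;AhRf/f cells, where 6.48% did. Libraries with CRE and PBS did not overlap in 2 of 9 in each genotype, against 16.5% of all genes in AhRf/f and 11.8% in Sftpc-Cre;AhRf/f cells. The summed AT1 markers were lower with CRE, at 1044 to 1275 against 1577 to 1975 CPM in AhRf/f and 1188 to 1544 against 1624 to 2211 CPM in Sftpc-Cre;AhRf/f cells, and their part in these values was not tested. The CRE responses share libraries with the genotype differences by which 3 of the genes were picked. With CRE and PBS libraries of one replicate number paired, edgeR called 748 genes in AhRf/f cells (3.63%) and 439 in Sftpc-Cre;AhRf/f cells (2.13%), and still 0 of the 9.

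Ahr in AhRf/f cells went from 44.0 ± 1.1 to 52.3 ± 3.43 CPM (SD, n = 3). Each CRE library was above each PBS library, yet the log2 fold change of 0.25 (interval -0.011 to 0.51) came with a Benjamini-Hochberg adjusted p of 0.555 in edgeR. In Sftpc-Cre;AhRf/f cells the shift was 0.033 (-0.23 to 0.29). Adi1 was the gene with an unadjusted p below 0.05 in AhRf/f cells. It was at 63.8 ± 6.85 CPM with PBS and 54.6 ± 1.65 CPM with CRE, a log2 fold change of -0.22 (-0.39 to -0.057) with a Benjamini-Hochberg adjusted p of 0.373 in edgeR. In Sftpc-Cre;AhRf/f cells its log2 fold change was -0.055. Snx13 was the corresponding gene in Sftpc-Cre;AhRf/f cells, at 98.7 ± 4.78 CPM with PBS and 85.1 ± 3.06 CPM with CRE, a log2 fold change of -0.21 with a Benjamini-Hochberg adjusted p of 0.765 in edgeR. Acp1 was at 36.4 ± 3.02 and 41.9 ± 1.95 CPM in these cells without overlap of libraries, a log2 fold change of 0.20 (-0.011 to 0.42). In AhRf/f cells its log2 fold change was 0.042 (-0.17 to 0.26). These intervals and adjusted p values come from the fit without pairing. With libraries paired by replicate number, edgeR gave Benjamini-Hochberg adjusted p values of 0.114 for Ahr and 0.115 for Adi1 in AhRf/f cells. In Sftpc-Cre;AhRf/f cells the paired fit gave 0.12 for Snx13 and 0.1 for Acp1.

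The CRE response of the 9 genes was not shown to differ between genotypes. The interaction contrast in edgeR called 0 of 9 and 0 of 20612 over all genes (0%), DESeq2 and limma-trend called 0 of 9, and DESeq2 called 23 over all genes. At an unadjusted p below 0.05, 1 of 9 passed, where 3.7% of all genes did. That gene was Agr3, whose log2 fold change with CRE was 0.41 (-0.30 to 1.12) in AhRf/f and -0.67 (-1.41 to 0.074) in Sftpc-Cre;AhRf/f cells. The difference of these responses was -1.08 (-2.11 to -0.050), and its Benjamini-Hochberg adjusted p in edgeR was 1, or 0.538 with libraries paired. It equals the difference of the genotype effects on which Agr3 was chosen, so it is not independent of that choice. For Acp1 the difference was 0.16 (-0.14 to 0.47), for Adi1 0.17 (-0.066 to 0.40) and for Ahr -0.22 (-0.58 to 0.15).

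**Figure D4:**
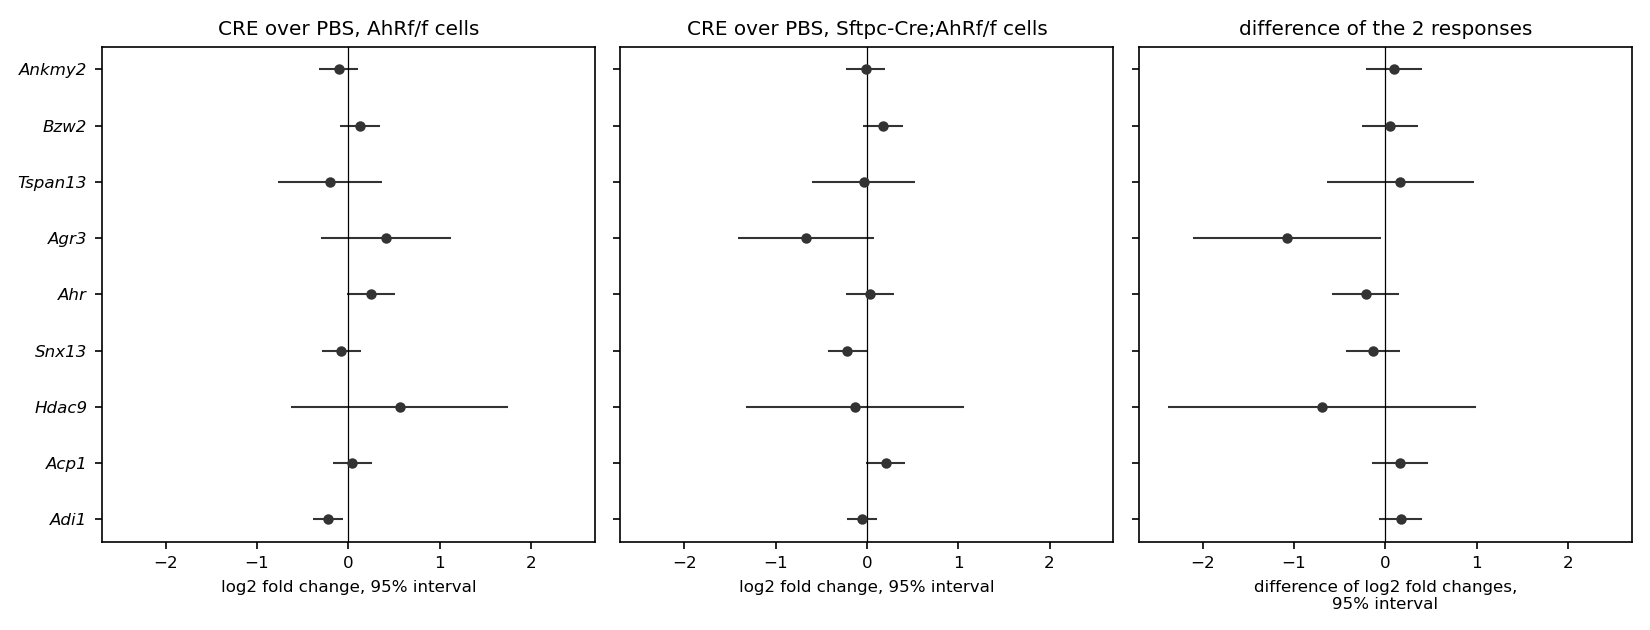
Log2 fold change of CRE over PBS with its 95% interval for the 9 tested genes, in AhRf/f cells on the left and in Sftpc-Cre;AhRf/f cells in the middle, and the difference of the 2 responses on the right, with genes in the order of the chromosome. Intervals are from the fit without pairing of libraries. They are narrow for Adi1, Acp1, Ahr, Snx13, Bzw2 and Ankmy2 and wide for Hdac9, Agr3 and Tspan13. No point passed the adjusted threshold.

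For 4 of these genes, the genes whose log2 CPM followed them most closely over the 12 libraries are given, among 14542 others averaging at least 1 CPM. For Agr3, which itself averaged only 0.724 CPM, there were 14543. The closest genes lay on other chromosomes, as most genes do: chromosome 12 held 832 of the 20612 tested genes. For Agr3 the highest Pearson correlations were with Cyp1b1 (r = 0.952, chromosome 17), Padi2 (0.934, chromosome 4) and Selenbp2 (0.9285, chromosome 3). For Acp1 they were with Arl6ip5 (0.988, chromosome 6), Dynlt1b (0.982, chromosome 17) and Xdh (0.973, chromosome 17). For Adi1 they were with Gm6472 (0.977, chromosome X), a processed pseudogene, Car8 (0.961, chromosome 4) and Scel (0.961, chromosome 14). Ahr was followed less closely, by Nabp1 (0.907, chromosome 1), Gm20342 (0.896, chromosome 1) and Dmxl2 (0.893, chromosome 9). The 12 points of each correlation share their libraries and the genotype grouping, by which the libraries of Agr3, Acp1 and Adi1 separate, and the values are a description.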

How the data were processed

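RNA-seq of 12 AT2 cell libraries was analysed, 3 in each of 4 groups taken from the library titles. In the titles WT was read as AhRf/f and AhR as Sftpc-Cre;AhRf/f, after the study's text. Per the labels, the authors made stranded mRNA libraries, aligned reads to GRCm38 with STAR 2.7.2b, annotated them in Partek and took counts from Salmon, as the study's methods state; the tool behind the FPKM is not given in the sources used here. The deposited gene counts (none normalized) and the deposited FPKM values, made by the authors per length and depth, were both used; FPKM served only to order levels between genes and as an alternative. All 55450 genes matched GENCODE M21, and 0 columns were unmatched. Counts were scaled by TMM, filtered by filterByExpr (minimum count 10) and tested with edgeR 4.0.16 (R 4.3.3) by its quasi-likelihood test over all 12 libraries, with Benjamini-Hochberg adjustment over 20612 genes at 0.05. The fit was tested on simulated data. Intervals are 95%. Alternatives used DESeq2 1.42.0, limma 3.58.1, other filters and scalings, fewer libraries, FPKM and a replicate block. Total counts per library were 68878065 to 80935797, so that 3 counts, the limit of a count of 0, equal 0.0365 to 0.0446 CPM.

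The 10 genes and all lists were chosen with earlier results of these data known. Named genes were the 10, other called genes at 28 to 37 Mb, the 3 genes most correlated with Ahr, Acp1, Adi1 and Agr3, listed AhR targets and protein disulfide isomerases, and Arnt; the result of 1 further list is not reported here; direct neighbours, edge genes and cell markers were added by position or list. Same-numbered CRE and PBS libraries deviated together (correlations 0.729, 0.418 and 0.651 in AhRf/f and 0.589, 0.542 and 0.325 in Sftpc-Cre;AhRf/f cells, over 14543 genes), so the numbers were taken to pair them; the pairing comes from the data, as the labels do not state it. Promoter windows were from RefSeq (GRCm38.p6).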

Additional observations from a re-analysis of the deposited data

How the results depend on the processing

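Over 20 other settings, 740 of 766 tested values of the 10 genes kept their direction and their side of the threshold, and 26 changed sign, none of them called. The 120 genotype values of Acp1, Adi1 and Agr3 kept their sign in all settings, with ranges over all settings of -1.47 to -1.26 (PBS) and -1.28 to -1.135 (CRE) for Acp1, 0.79 to 0.93 and 0.98 to 1.04 for Adi1, and -1.70 to -0.52 and -2.67 to -0.87 for Agr3, whose smallest values came from log2(FPKM + 1), which understates low genes. Ankmy2 between genotypes with PBS turned to 0.021 on that scale. Leaving out 1 library at a time, the log2 fold changes that changed sign ranged as follows. Between genotypes with PBS, Ahr ranged from -0.032 to 0.12, Ankmy2 from -0.046 to 0.041 and Hdac9 from -0.235 to 0.40, and with CRE Snx13 ranged from -0.059 to 0.097. For CRE over PBS in AhRf/f cells, Acp1 ranged from -0.047 to 0.11, Snx13 from -0.14 to 0.020 and Tspan13 from -0.39 to 0.014. In Sftpc-Cre;AhRf/f cells, Ahr ranged from -0.051 to 0.16, Ankmy2 from -0.046 to 0.029, Hdac9 from -0.73 to 0.25 and Tspan13 from -0.30 to 0.13. The difference of responses ranged from -0.013 to 0.14 for Bzw2 and from -0.10 to 0.36 for Tspan13.

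The counts of called genes at 28 to 37 Mb include Acp1, Adi1 and Agr3, which were chosen on this contrast, so they are followed by the count without these. Of the 49 genes, DESeq2 called 8 with PBS and 7 with CRE (5 and 4 without the chosen genes), at 1.18% and 0.844% of all genes. The counts in edgeR were 3 and 3 (1 and 0), at 0.15% and 0.17% of all genes. A filter of 1 CPM in 3 libraries gave 5 of 39 (3) with PBS, at 0.304% of all genes. The cause was not tested. Fits of only the compared groups gave 2 of 47 and 2 of 46 (0 and 0), at 0.0781% and 0.13% of all genes. Genes within 5 Mb of Ahr gave 2 and 2 of 54 (1 and 0), against 0.15% and 0.17% of all genes. Leaving out 1 library gave 2 to 3 in both (0 to 1 with PBS and 0 with CRE). Over all genes those fits called 0.0701% to 0.135% with PBS and 0.0979% to 0.164% with CRE. The adjusted p of Hdac9 for CRE in AhRf/f cells was NA in DESeq2.

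With the replicate number as a block, the count was 4 with PBS and 4 with CRE, or 2 (Fam110c and Tmem18) and 1 (Slc26a4) without the chosen genes. Over all genes that fit called 71 (0.344%) with PBS and 55 (0.267%) with CRE. Between genotypes the numbers were not taken to pair libraries, since correlations of same-numbered libraries were 0.42, 0.0416 and 0.106 with PBS and 0.413, -0.0286 and 0.0867 with CRE. With CRE and PBS paired, 0 of the 9 tested genes were called in either genotype or for the difference. Depth limits Hdac9, Agr3 and Agr2, and whole-gene counts cannot show the deletion in Ahr.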
